A study of Solanum tuberosum with 10 samples.

Results

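Gene expression was measured by RNA-seq in potato grown in vitro (Solanum tuberosum, wild type, cultivar Desirée), and the comparison described here is the change from explants at 48 h to plantlets at 1 w. It used 4 of the 10 libraries of the series: US 1 w, control 1 w, US 48 h and control 48 h. US stands for ultrasonication, per the labels an exposure at 35 kHz and 70 W for 20 min directly after single-node segments had been cut from plantlets aged 4 weeks and laid on medium, and control segments were handled alike without it. Both treatments therefore carried a fresh cut at 0 h, and each gave its own step from 48 h to 1 w. A gene was counted when the steps of both treatments passed the same size and went in the same direction.

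The material differed between the times. The study's methods name explants at 48 h and leaves with stems and roots at 1 w, whereas the labels give leaf for all samples, so time in culture and kind of material cannot be told apart. Fewer cells of a type and less RNA per cell cannot be told apart either. There was 1 library per group: the methods describe 3 biological replicates pooled into it and the labels speak of a single one, so no group had a spread of its own, and the other treatment was the only repeat of the step.

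A cut node first behaves as wounded tissue and only later as a growing shoot. Wounded leaves of potato and its relatives make proteinase inhibitors under the control of the hormone jasmonate, and the node then has to reopen its bud, lay down cuticle and cell walls, form roots and build new chloroplast antennae. Lipid-transfer proteins carry waxy precursors to the surface, expansins and pectin enzymes remodel walls, and chlorophyll a/b binding proteins hold the pigments that collect light.

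The totals of the 4 libraries were 38049313 to 41304037 reads, and 25487 to 26475 features had reads. Levels are RPM, reads per 1000000 reads of the library total, and 3 reads, taken as the floor where a gene had none, were 0.0726 to 0.0788 RPM. Across 20494 expressed genes, the US and control libraries of 1 w were each other's nearest library, with a Pearson correlation of 0.969. The US 48 h library was nearest to the control library of 24 h (0.966) rather than to the control library of 48 h (0.943), so counts are also given without it. These correlations are across genes, which are not independent replicates. Ribosomal RNA took 0.101% to 0.219% of the gene reads of the 4 libraries.

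At 1 w, 175 genes were at least 4-fold higher than at 48 h in both treatments and 266 were at least 4-fold lower. The rule of size asked for a log2 difference of at least 2 and for at least 1 RPM in the higher library of each treatment. Of 21332 features with at least 1 RPM at either time in each treatment, these were 0.82% and 1.25%. The US step alone gave 512 higher and 609 lower genes, and the control step alone, which does not use the US 48 h library, gave 890 and 1101. The shared genes were 34.2% of the US rises and 19.7% of the control rises, and 43.7% of the US falls and 24.2% of the control falls. Another 16 genes passed the rule in both treatments in opposite directions.

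Over the 20494 genes whose log2 RPM averaged 0 or more in the 10 libraries, the US step and the control step, which share no library, had a Pearson correlation of 0.456 and the same direction for 60.6% of genes. The median log2 difference was 0.05 in the US step and -0.08 in the control step. The gene just inside the rule had a smaller log2 difference of 2.0057 in size and the gene just outside one of 1.9994.

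**Figure D1:**
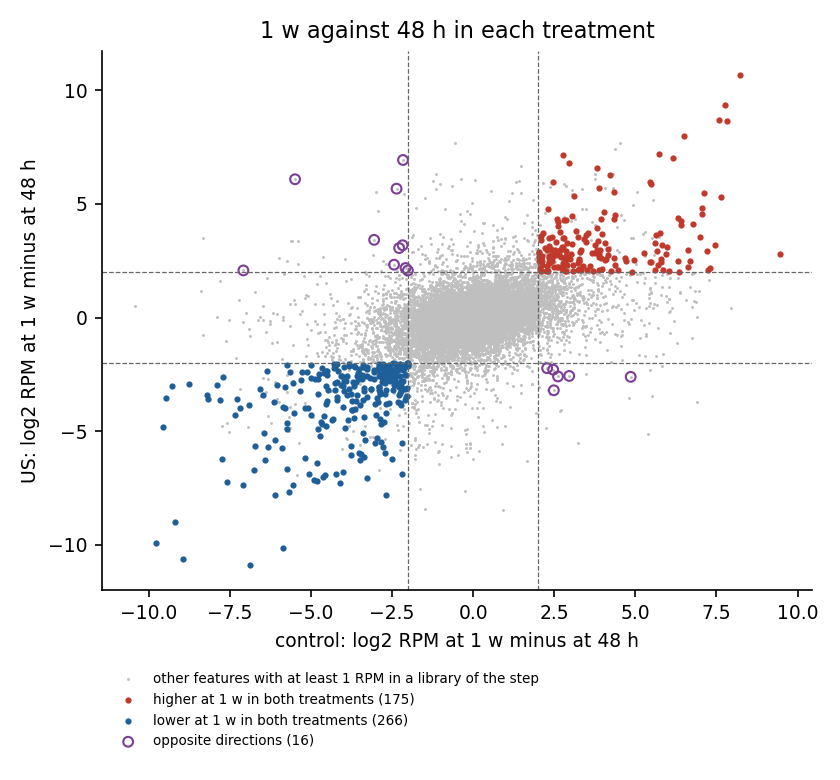
Difference in log2 RPM between 1 w and 48 h in the US libraries (vertical axis) against that in the control libraries (horizontal axis), 1 point per feature with at least 1 RPM in a library of the step, with dashed lines at the 4-fold limits. The 175 genes higher in both treatments fill the upper right, the 266 lower in both fill the lower left, and 16 genes lie in the opposite corners.

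The step stood between a smaller and 2 larger ones. By the same rule, 1020 genes were higher and 841 lower at 24 h than at 0 h, 74 higher and 81 lower at 48 h than at 24 h, and 132 higher and 917 lower at 4 w than at 1 w. The treatments had a correlation of -0.027 in the 48 h against 24 h step, where 103 genes went in opposite directions, and 0.61 in the 4 w against 1 w step.

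**Figure D2:**
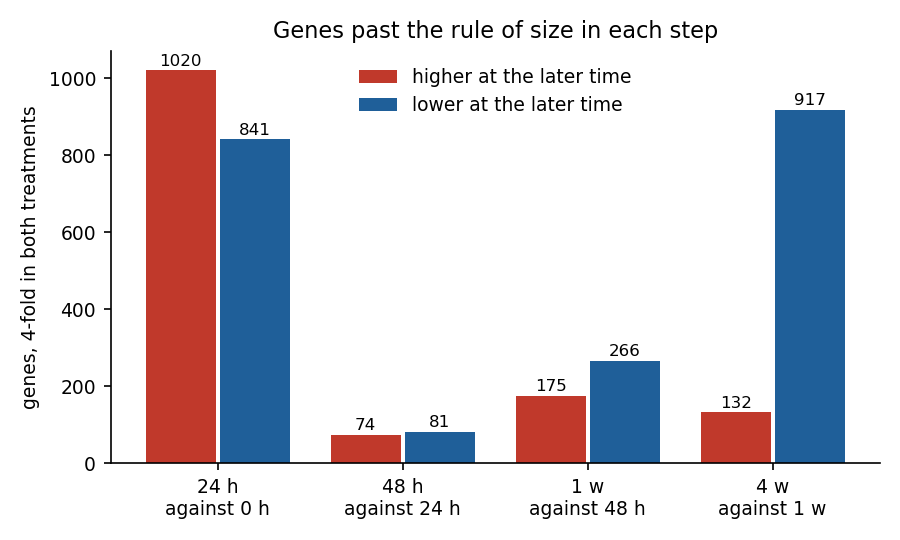
Number of genes at least 4-fold higher (red) or lower (blue) at the later time in both treatments, for the 4 adjacent steps in time. The 1 w against 48 h step held 175 and 266 genes, more than the 48 h against 24 h step (74 and 81) and fewer than the others in total.

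For a test across genes, limma was run on the 10 libraries together, on log2 RPM, with time and treatment as factors, so that the spread came from the disagreement of the treatments over all 5 times. At a Benjamini-Hochberg adjusted p below 0.05, and with both treatments in the same direction, 29 genes were higher at 1 w and 141 lower, which is 0.142% and 0.688% of the 20494 genes tested, while 2812 genes had an unadjusted p below 0.05. Among genes that passed by size, 54 of the 175 higher and 207 of the 266 lower were abundant enough over all times to be tested, and 17 and 94 of them were called. A gene seen only at 1 w has a low mean over the 10 libraries, so 121 of the 175 higher genes were not tested.

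The limma counts rested on single libraries. Without the US 1 w library 0 genes were higher and 0 lower (711 and 932 at an unadjusted p below 0.05), and without the control 48 h library again 0 and 0 (502 and 816). Without the control 1 w library 0 were higher (533 at an unadjusted p below 0.05) and 19 lower. Without the US 48 h library limma called 150 higher and 149 lower genes, which included 19 of the 29 and 83 of the 141, and without both 4 w libraries it called 17 and 118. In these fits a time left with 1 library was assumed to vary like the others.

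Kunitz-type and other proteinase inhibitors were the list with the lowest median. These proteins block the digestive enzymes of insects and also serve as protein stores in potato. Of 16 members, 13 were lower at 1 w in both treatments, 6 passed the rule of size as lower, 0 as higher, and 1 was higher in both. By any amount, 30.5% of the 20494 genes tested were lower in both treatments and 6151 of them were higher in both, which also stands beside the counts of the lists below. Their summed level was 737.6 RPM in US 1 w and 2688 RPM in control 1 w, against 27950 RPM in US 48 h and 14370 RPM in control 48 h. The median log2 difference of the members was -3.70, beside -0.02 over all genes. Limma called 0 of the 15 tested (adjusted p 0.0801 to 0.926, 9 called as lower with the 4 libraries of the step alone), and 13 members were past the 4-fold limit as lower in the US step against 7 in the control step.

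The member with the highest level in both libraries of 48 h was the Kunitz-type protease inhibitor precursor PGSC0003DMG400009511 (chromosome 3, 49798113 to 49798938, minus strand, build SolTub 3.0). It had 111.0 RPM in US 1 w and 176.1 RPM in control 1 w, against 13130 RPM in US 48 h and 5853 RPM in control 48 h. The level at 1 w was 118-fold lower in the US step (95% interval 115 to 122) and 33.2-fold lower in the control step (32.5 to 34.0). The intervals here and below are exact conditional (Clopper-Pearson) intervals on the recovered reads and cover counting error only, and limma gave a log2 difference of -5.97 with a standard error of 1.28 and an adjusted p of 0.0801.

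The genes next to it on chromosome 3 did not all move with it. Kunitz-type inhibitor B, PGSC0003DMG400009512, had 0.444 RPM in US 1 w and 3.25 RPM in control 1 w, against 83.0 RPM in US 48 h and 10.2 RPM in control 48 h. A second Kunitz-type precursor, PGSC0003DMG400009513, had 253.4 and 1426 RPM in US and control at 1 w, against 12370 and 5393 RPM in US and control at 48 h. At 4 w it had 765.2 RPM in US and 9272 RPM in control, so the control level was then above that of 48 h. The third, PGSC0003DMG400009514, ended at 49842079 and went the other way, with 193.2 RPM in US 1 w and 452.2 RPM in control 1 w, against 107.5 RPM in US 48 h and 145.5 RPM in control 48 h. Its log2 difference by limma was 1.24 with a standard error of 0.68 (Benjamini-Hochberg adjusted p = 0.479), which was within the spread.

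Further along chromosome 3, proteinase inhibitor II (PGSC0003DMG400004547), a wound-inducible inhibitor known from tomato and potato leaves, had 59.1 RPM in US 1 w and 37.99 RPM in control 1 w, against 890.5 RPM in US 48 h and 607.0 RPM in control 48 h. Its log2 differences were close in the treatments, -3.914 in the US step and -3.998 in the control step, but limma did not call it (adjusted p = 0.252). Proteinase inhibitor II also varied at other times. It had 148.7 RPM in US 0 h and 1254 RPM in control 0 h, and 13.7 RPM in US 4 w and 887.4 RPM in control 4 w. In the stretch from 43944960 to 44319900, Kunitz-type inhibitor B (PGSC0003DMG400010128), cysteine protease inhibitor 8-like (PGSC0003DMG400010136) and Kunitz-type inhibitor C (PGSC0003DMG400010137) passed the rule in both treatments. Other list members there did not. PGSC0003DMG400010144 was under the limit in the control step (-1.667). DrTI-like PGSC0003DMG400010170 did not fall, with 60.3 and 66.5 RPM in US and control at 1 w, against 19.1 and 66.9 RPM in US and control at 48 h. Inhibitor C had 20.1 and 69.2 RPM in US and control at 1 w, against 335.9 and 926.5 RPM in US and control at 48 h.

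The cystatins, which inhibit cysteine proteinases, differed between the treatments. The cystatin PGSC0003DMG400026899 had 4.62 RPM in US 1 w and 102.0 RPM in control 1 w, against 202.7 RPM in US 48 h and 229.4 RPM in control 48 h. At 4 w it had 181.0 RPM in US and 492.2 RPM in control. Its libraries of 48 h were alike and those of 1 w were not, so that the log2 difference was -5.46 in the US step and -1.17 in the control step. Miraculin-like PGSC0003DMG400027054, of the same Kunitz family, showed the reverse: 1.58 RPM in US 1 w and no reads in control 1 w, against 1.11 RPM in US 48 h and 30.5 RPM in control 48 h.

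**Figure D3:**
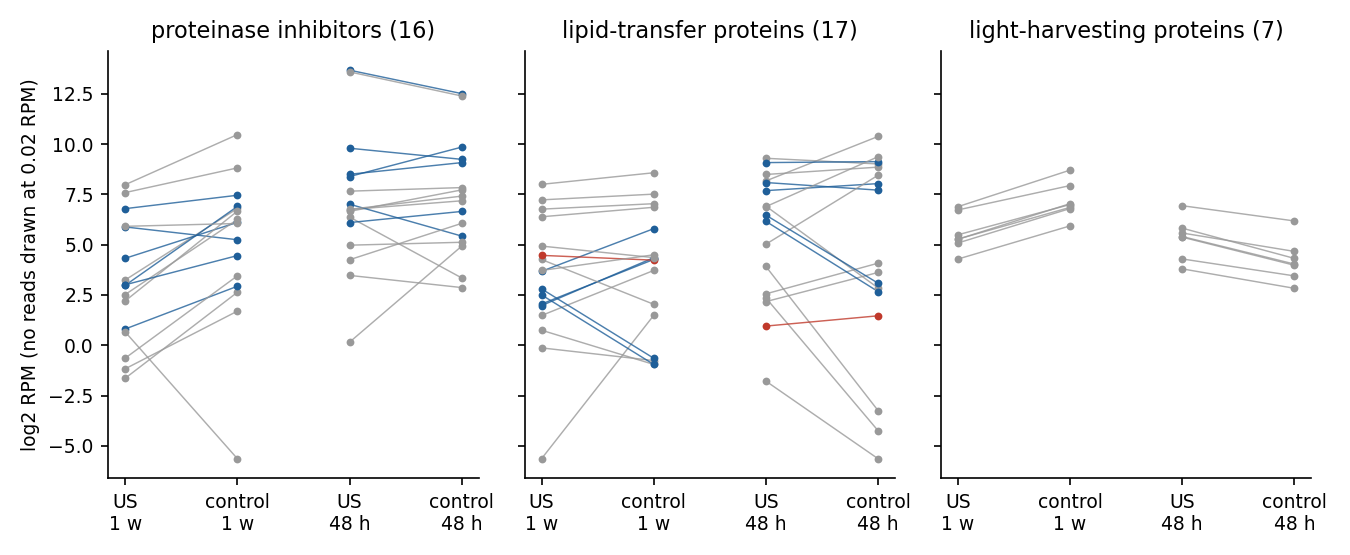
Log2 RPM of each member of 3 gene lists in the 4 libraries, 1 point per gene and library, with the US and control libraries of a time joined by a line. Blue marks genes at least 4-fold lower at 1 w in both treatments, red genes at least 4-fold higher, and grey the other members. Summed levels of the proteinase inhibitors were 737.6 and 2688 RPM in US and control at 1 w, against 27950 and 14370 RPM at 48 h, while the light-harvesting genes were highest in control 1 w.

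Lipid-transfer proteins were the second group with a common direction. Of 17 members, 12 were lower at 1 w in both treatments and 2 higher, and 5 passed the rule of size as lower, an overlapping pair among them, and 1 as higher. Limma called 3 of the 14 tested as lower and 0 as higher. The members summed to 723.7 RPM in US 1 w and 992.8 RPM in control 1 w, against 2767 RPM in US 48 h and 4425 RPM in control 48 h, with a median log2 difference of -1.73.

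The genes called were all named non-specific lipid-transfer protein 2-like. PGSC0003DMG400012839 (chromosome 10, 13444785 to 13445603) had 12.8 RPM in US 1 w and 55.6 RPM in control 1 w, against 542.8 RPM in US 48 h and 561.4 RPM in control 48 h. The libraries of 48 h were almost equal, and the level at 1 w was lower by a factor of 42.5 in the US step (95% interval 38.9 to 46.4) and 10.1 in the control step (9.66 to 10.6). Its limma log2 difference was -4.37 with a standard error of 0.55 (Benjamini-Hochberg adjusted p = 0.0153).

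The second and the third call were neighbours on the unplaced chromosome 0. PGSC0003DMG400011951 had 4.15 and 19.3 RPM in US and control at 1 w, against 206.5 and 263.1 RPM in US and control at 48 h (limma log2 difference -4.70, standard error 0.49, adjusted p = 0.00975). PGSC0003DMG400011952 had 3.93 and 20.5 RPM in US and control at 1 w, against 273.0 and 210.1 RPM in US and control at 48 h (limma log2 difference -4.74, standard error 0.68, adjusted p = 0.0248). The next gene on that scaffold, PGSC0003DMG400011953, differed little, with 256.5 and 382.4 RPM in US and control at 1 w, against 360.5 and 464.2 RPM in US and control at 48 h.

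The member that passed the rule as higher at 1 w was PGSC0003DMG400031127, a non-specific lipid-transfer protein-like gene on chromosome 1. It had 22.2 RPM in US 1 w and 18.8 RPM in control 1 w, against 1.94 RPM in US 48 h and 2.76 RPM in control 48 h. The gene also varied at the other times, with 0.837 RPM in US 4 w against 59.7 RPM in control 4 w, and limma gave an adjusted p of 0.5.

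Some members of this family are hard to tell apart by sequence. The primer list of the study holds separate RT-qPCR primers for 2 of them, PGSC0003DMG402031237 on chromosome 10, for which the methods name the overlapping PGSC0003DMG401031237, and PGSC0003DMG400002471 on chromosome 1. They are shown because they show how near these copies are to each other. The primers are given 5′ to 3′, with the bases that differ between the 2 genes in capitals.
PGSC0003DMG402031237 forward: ctccTtgcctcccAtatct
PGSC0003DMG400002471 forward: ctccAtgcctcccTtatct
PGSC0003DMG402031237 reverse: ttgcccacatCaatgcct
PGSC0003DMG400002471 reverse: ttgcccacatTaatgcct
The forward primers differ in 2 of 19 bases and the reverse primers in 1 of 18. Only uniquely aligned reads were counted, so values of such copies are uncertain.

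PGSC0003DMG402031237 had 6.99 RPM in US 1 w and 0.639 RPM in control 1 w, against 88.7 RPM in US 48 h and 8.49 RPM in control 48 h. Its log2 differences, -3.67 in the US step and -3.73 in the control step, were alike although the US libraries were higher than the control libraries at both times. It overlaps PGSC0003DMG401031237, which had near the same pattern and cannot be counted as separate evidence. PGSC0003DMG400002471 fell with it in the US step, to 1.68 RPM in US 1 w against 15.1 RPM in US 48 h, but had 0.516 RPM in control 1 w against 0.105 RPM in control 48 h, where it had 4 reads.

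**Figure D4:**
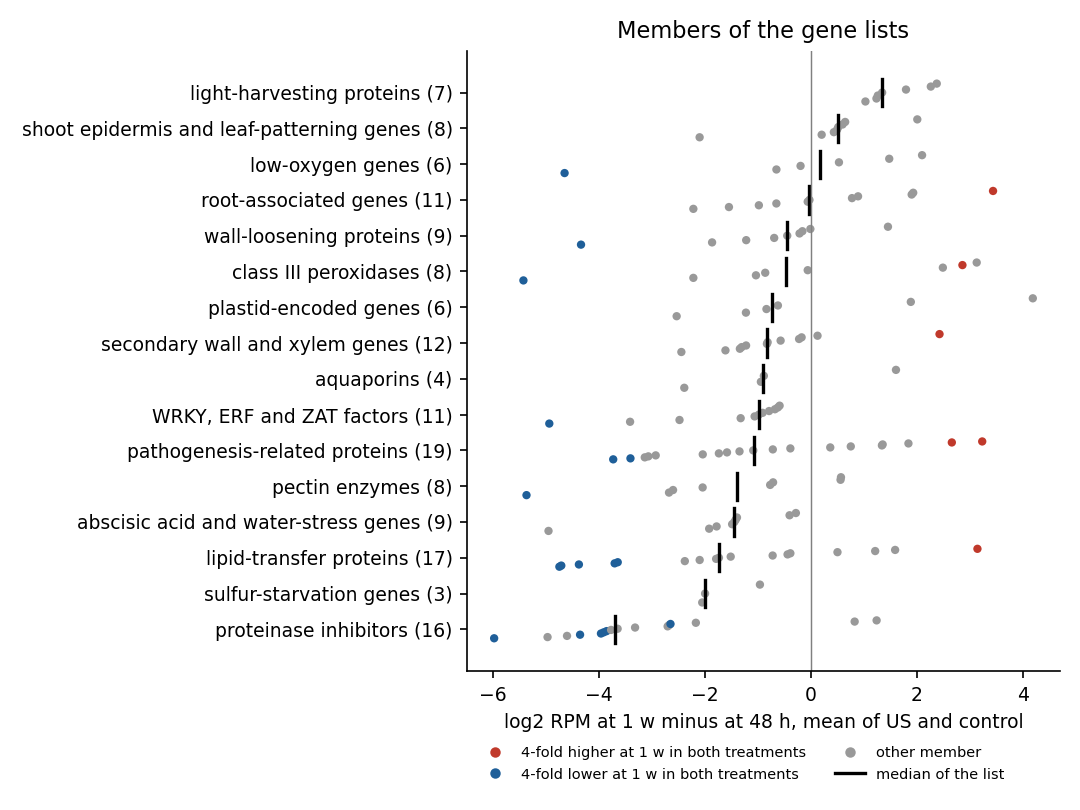
Difference in log2 RPM between 1 w and 48 h, as the mean of US and control, for every member of 16 gene lists, ordered by the list median (black bar), with the number of members in brackets. Blue and red mark members past the 4-fold limit in both treatments. Proteinase inhibitors have the lowest median (-3.70) and light-harvesting proteins the highest (1.34).

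The lists were made by words in the names that the study gives to genes it had picked for US differences in these same libraries. They are therefore not independent evidence of a direction between US and control, nor of a difference between the US step and the control step. They also hold few genes of steady level. Names were given for 353 of the 367 genes it lists and for 9 of the 175 higher and 27 of the 266 lower genes of the step. The other genes are known here only by their identifiers.

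Some cell wall genes were among the largest named falls. Extensin-1 (PGSC0003DMG400000794), a structural glycoprotein that stiffens walls, had 3.04 RPM in US 1 w and 1.38 RPM in control 1 w, against 47.8 RPM in US 48 h and 200.4 RPM in control 48 h. It was 15.7-fold lower in the US step (95% interval 13.1 to 19.0) and 145.5-fold lower in the control step (111.9 to 192.8), and limma called it, with a log2 difference of -5.58, a standard error of 0.99 and an adjusted p of 0.0469. In the US series its level was highest at 24 h, 326.4 RPM, and in the control series at 48 h.

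The pectate lyase P18 (PGSC0003DMG400012640), an enzyme that cuts pectin, had 2.42 RPM in US 1 w and 3.42 RPM in control 1 w, against 34.3 RPM in US 48 h and 406.5 RPM in control 48 h. The 1 w libraries were alike, and the distance between the treatments lay at 48 h (limma adjusted p = 0.0535). Expansin-like B1 (PGSC0003DMG400026221), of a family named for wall loosening, had 0.444 RPM in US 1 w and 10.4 RPM in control 1 w, against 27.5 RPM in US 48 h and 68.5 RPM in control 48 h.

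These were the only members of their lists past the rule of size in both treatments, 1 of 8 pectin enzymes and 1 of 9 wall-loosening proteins. The pectin enzymes summed to 605.8 RPM in US 1 w and 334.0 RPM in control 1 w, against 236.2 RPM in US 48 h and 1342 RPM in control 48 h. Their sum was thus higher in the US step and lower in the control step. Pectinesterase-like PGSC0003DMG400002085, which overlaps another feature, held most of the US rise, with 445.2 RPM in US 1 w against 105.1 RPM in US 48 h. Of the 8 members, 3 were lower in both treatments and 0 higher. The sum of the wall-loosening proteins did the same, with 1189 RPM in US 1 w and 1146 RPM in control 1 w, against 888.0 RPM in US 48 h and 1880 RPM in control 48 h. Xyloglucan endotransglucosylase/hydrolase 2-like (PGSC0003DMG400021877) had 325.6 RPM in US 1 w against 136.6 RPM in US 48 h. Of the 9 members, 3 were lower and 1 higher in both treatments.

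Secondary wall and xylem genes were lower at 1 w in the control series. Of 12 members, 0 were at least 4-fold lower in the US step and 7 in the control step. Of all features, 2.8% and 4.97% were so in the US and control steps. The study had picked the members for US differences in these same libraries, which favours a difference between the steps. That difference could not be tested with 1 library each, and nothing is read from these counts. Laccase-4-like (PGSC0003DMG400011019), of the enzymes that polymerise lignin, had 2.17 RPM in US 1 w and 2.53 RPM in control 1 w, against 1.40 RPM in US 48 h and 36.5 RPM in control 48 h. The control 48 h library alone was high. COBRA-like protein 4 (PGSC0003DMG400024530), of a family needed for cellulose deposition, had 2.89 and 9.64 RPM in US and control at 1 w, against 1.501 and 57.32 RPM in US and control at 48 h.

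The member of that list that rose in both treatments was beta-D-xylosidase 1 (PGSC0003DMG400022933), which trims xylan chains in the wall. It had 217.5 RPM in US 1 w and 100.8 RPM in control 1 w, against 32.8 RPM in US 48 h and 23.1 RPM in control 48 h. The level at 1 w was 6.63-fold higher in the US step (95% interval 6.26 to 7.03) and 4.36-fold higher in the control step (4.05 to 4.70), but limma did not call it (adjusted p = 0.182).

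Sucrose synthase and a sulfur gene were called as lower. Sucrose synthase (PGSC0003DMG400002895), which splits sucrose in tissues that import sugar, had 20.1 RPM in US 1 w and 15.2 RPM in control 1 w, against 388.4 RPM in US 48 h and 490.9 RPM in control 48 h. The treatments were close at both times, with a 19.3-fold lower level in the US step (95% interval 18.0 to 20.8) and a 32.3-fold lower level in the control step (29.8 to 35.0). Limma gave -4.64 on the log2 scale with a standard error of 0.77 and an adjusted p of 0.0381.

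It was placed in the list of low-oxygen genes, but the fermentation enzymes of that list did not share its direction in both treatments. Pyruvate decarboxylase 1 (PGSC0003DMG400022953) had 41.4 RPM in US 1 w and 18.3 RPM in control 1 w, against 3.83 RPM in US 48 h and 10.8 RPM in control 48 h. Alcohol dehydrogenase (PGSC0003DMG400030771) had 118.8 and 47.4 RPM in US and control at 1 w, against 36.8 and 200.1 RPM in US and control at 48 h. Neither was called by limma (adjusted p 0.494 and 0.972).

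RESPONSE TO LOW SULFUR 3-like (PGSC0003DMG400000546), named after an Arabidopsis gene that is switched on when sulfur is short, had 15.1 RPM in US 1 w and 51.0 RPM in control 1 w, against 90.3 RPM in US 48 h and 135.5 RPM in control 48 h (limma log2 difference -1.99, standard error 0.35, adjusted p = 0.0461). The control step, -1.41, was under the 4-fold limit. SULFUR DEFICIENCY-INDUCED 1-like (PGSC0003DMG400014702), with 23.9 and 88.9 RPM in US and control at 1 w, against 115.1 and 314.4 RPM in US and control at 48 h, was not called (adjusted p = 0.209). Over all lists, limma called 5 members as lower and 0 as higher, and 29 and 8 with the 4 libraries of the step alone.

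Among stress regulators, the transcription factor ERF017 (PGSC0003DMG400002899) had 0.444 RPM in US 1 w and 0.295 RPM in control 1 w, against 5.84 RPM in US 48 h and 20.9 RPM in control 48 h. It was the one of 11 WRKY, ERF and ZAT factors past the rule of size in both treatments, and 8 of the 11 were lower in both (30.5% of all genes tested were), with a median log2 difference of -0.98 and 0 called by limma (2 called as lower with the 4 libraries of the step alone). ZAT10-like PGSC0003DMG400021508, a zinc finger repressor, had 13.4 RPM in US 1 w and 9.49 RPM in control 1 w, against 39.9 RPM in US 48 h and 98.8 RPM in control 48 h.

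Of 9 abscisic acid and water-stress genes, 6 were lower in both treatments (beside 30.5% of all genes tested) and 0 higher, 0 passed the rule in both, and limma called 0. The 9-cis-epoxycarotenoid dioxygenase (PGSC0003DMG400027633), the rate-limiting enzyme of abscisic acid synthesis, had no reads in US 1 w and 6.81 RPM in control 1 w, against 7.58 RPM in US 48 h and 18.9 RPM in control 48 h. Of 4 aquaporins, the water channels, 2 were lower and 1 higher in both treatments and 0 passed the rule or limma's test. Of 19 pathogenesis-related genes, 10 were lower and 5 higher in both treatments, with a median log2 difference of -1.08. By the rule of size 2 passed as lower and 2 as higher, beside 1.25% and 0.82% of features. Limma called 0 of the 15 tested (4 as lower and 0 as higher with the 4 libraries of the step alone), and the 2 higher genes were not tested. Chitinase 2-like (PGSC0003DMG400015523) had 6.02 and 7.50 RPM in US and control at 1 w, against 38.7 and 204.2 RPM in US and control at 48 h, whereas Basic secretory protease (PGSC0003DMG400025765) had 19.5 and 6.12 RPM in US and control at 1 w, against 1.43 and 0.946 RPM in US and control at 48 h.

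Light-harvesting proteins were higher at 1 w in the control series. In the US series some were higher and the others lower, the lowest by a log2 difference of -0.315 (PGSC0003DMG400008300). Of 7 members, 0 were at least 4-fold higher in the US step and all 7 in the control step, beside 2.35% of features past the limit as higher in the US step and 4.02% in the control step. By any amount, 3 of the 7 were higher in both treatments and 0 lower in both. They summed to 400.5 RPM in US 1 w and 1212 RPM in control 1 w, against 344.9 RPM in US 48 h and 168.3 RPM in control 48 h. Limma called 0 of the 7, with a median log2 difference of 1.34, and the difference between the steps could not be tested with 1 library each. The study had picked these genes for US differences in these same libraries, which favours such a difference. Nothing is read from the counts per step.

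The closest to a common rise was chlorophyll a-b binding protein 3C (PGSC0003DMG400008299, chromosome 2), with 45.0 RPM in US 1 w and 127.9 RPM in control 1 w, against 19.6 RPM in US 48 h and 10.9 RPM in control 48 h (limma log2 difference 2.38, standard error 0.49, adjusted p = 0.073). PGSC0003DMG400008300, of the same name and near it, had 38.5 and 131.8 RPM in US and control at 1 w, against 47.9 and 25.4 RPM in US and control at 48 h. Beyond that gene, PGSC0003DMG400008301 had 118.6 and 418.5 RPM in US and control at 1 w, against 122.8 and 72.6 RPM in US and control at 48 h, so its US libraries were level. The genes whose names end in (chloroplast) lie on chromosomes 1, 6 and 9 of the build. Whether their reads came from the chloroplast genome or from these placed copies was not tested. They summed to 64.6 and 80.8 RPM in US and control at 1 w, against 84.4 and 94.2 RPM in US and control at 48 h. Of these 6 genes, 4 were lower and 2 higher in both treatments, and the higher were copies of ribosomal protein S7, of which PGSC0003DMG400038200 had 13.4 and 26.2 RPM in US and control at 1 w, against 10.1 and 0.105 RPM in US and control at 48 h.

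Of the named genes that rose in both treatments, putative germin-like protein 2-1 (PGSC0003DMG400013099), of a family of secreted proteins with a barrel fold, had the largest mean log2 difference. It had 27.2 RPM in US 1 w and 19.1 RPM in control 1 w, against 1.09 RPM in US 48 h and 1.16 RPM in control 48 h. The rise was 24.97-fold in the US step (95% interval 18.5 to 34.4) and 16.5-fold in the control step (12.2 to 23.0). Both libraries of 48 h were near 1 RPM, and at 4 w the US library had 0.507 RPM and the control library 17.9 RPM. The limma adjusted p was 0.173.

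CASP-like protein 1 (PGSC0003DMG400022659) belongs to the family of the proteins that place the Casparian strip, the seal of the root endodermis. It had 31.8 RPM in US 1 w and 19.0 RPM in control 1 w, against 2.88 RPM in US 48 h and 1.79 RPM in control 48 h. The steps were nearly equal, 11.0-fold (9.15 to 13.4) in US and 10.6-fold (8.27 to 13.8) in control, but limma did not call it (adjusted p = 0.358), and at 4 w it had 0.761 RPM in US against 33.1 RPM in control.

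The root-associated list did not rise as a whole. CASP-like protein 1 was its 1 member of 11 past the rule, 3 members were higher and 4 lower in both treatments, and the list summed to 910.7 RPM in US 1 w and 796.7 RPM in control 1 w, against 980.4 RPM in US 48 h and 1681 RPM in control 48 h. Of its markers, LOB domain-containing protein 16-like (PGSC0003DMG400020069), which acts in the start of lateral roots in Arabidopsis, had 0.568 RPM in US 1 w and 0.566 RPM in control 1 w, against no reads in US 48 h and 4.28 RPM in control 48 h, so its steps went in opposite directions. RSI-1 (PGSC0003DMG402015689) was highest in control 48 h, with 628.2 RPM, and is part of the list's sum of 1681 RPM there. Other members rose. NRT1/PTR FAMILY 7.3-like (PGSC0003DMG400024120) had 50.1 and 87.6 RPM in US and control at 1 w, against 20.65 and 15.2 RPM at 48 h. Early nodulin-93-like (PGSC0003DMG400020681) had 37.5 and 24.4 RPM in US and control at 1 w, against 2.64 and 23.9 RPM at 48 h. Limma called neither (adjusted p 0.264 and 0.472). The list of shoot epidermis and leaf-patterning genes summed to 919.5 RPM in US 1 w and 695.2 RPM in control 1 w, against 608.4 RPM in US 48 h and 385.0 RPM in control 48 h, with 0 of 8 past the rule in both. Of these 8 genes, 3 were higher and 1 lower in both treatments. Protodermal factor 1-like genes held much of the sum at 1 w. PGSC0003DMG400017342 had 414.3 and 275.8 RPM in US and control at 1 w, and PGSC0003DMG400007796 had 349.1 and 301.1 RPM. TORNADO 2 (PGSC0003DMG400017539) was lower, with 11.7 and 9.22 RPM in US and control at 1 w, against 18.2 and 108.1 RPM at 48 h. Whether the share of any tissue changed in the step was not tested.

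TTS protein (PGSC0003DMG400029695), named after an arabinogalactan protein of the tobacco pistil, had 423.6 RPM in US 1 w and 235.2 RPM in control 1 w, against 88.8 RPM in US 48 h and 19.4 RPM in control 48 h. Chloroplastic Cu-Zn superoxide dismutase (PGSC0003DMG400000417), named after the enzyme that removes superoxide, had 396.4 RPM in US 1 w and 228.0 RPM in control 1 w, against 71.2 RPM in US 48 h and 23.9 RPM in control 48 h. Both were higher in US than in control at each of these times and higher at 1 w in both treatments. Limma called neither (adjusted p 0.215 and 0.15), and the dismutase gene overlaps another feature. In the control series the dismutase gene had 148.0 RPM at 0 h and 235.2 RPM at 24 h, so its level at 1 w was not above that of 24 h.

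Peroxidases, secreted enzymes that work on cell walls, split. Probable peroxidase 61 (PGSC0003DMG400005872) had 24.6 and 11.2 RPM in US and control at 1 w, against 6.03 and 0.867 RPM in US and control at 48 h. Peroxidase 21-like (PGSC0003DMG400010465) had 0.247 and 0.172 RPM in US and control at 1 w, against 1.91 and 40.6 RPM in US and control at 48 h. They were the members, 1 higher and 1 lower of 8, that passed the rule in both treatments.

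The largest rises were of genes without a name in the sources used here. PGSC0003DMG400009247 (chromosome 11, 8550924 to 8555673, plus strand) had 35.4 RPM in US 1 w and 15.6 RPM in control 1 w, against no reads in US 48 h and 0.0526 RPM (2 reads) in control 48 h. That is at least 487-fold higher in the US step, with 3 reads as the floor, and 297-fold (95% interval 81.8 to 2454) in the control step. It had 9 reads in control 4 w and none in US 4 w or in any library of 0 h or 24 h, so nearly all of its reads in the series came from 1 w. The other 4 of the 5 largest rises had no reads in either library of 48 h, 5.604 to 14.44 RPM in US 1 w and 2.16 to 5.31 RPM in control 1 w.

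The most abundant gene that rose was PGSC0003DMG400003243 (chromosome 10, 14040838 to 14042742, minus strand). It had 2034 RPM in US 1 w and 3130 RPM in control 1 w, against 320.2 RPM in US 48 h and 211.8 RPM in control 48 h, and it stayed high at 4 w, with 4407 RPM in US and 2890 RPM in control. Limma called it with a log2 difference of 3.28, a standard error of 0.47 and an adjusted p of 0.0247.

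The clearest falls were also unnamed. PGSC0003DMG400013552 (chromosome 7, 40343170 to 40343952, minus strand) had 0.864 RPM in US 1 w and 1.21 RPM in control 1 w, against 91.1 RPM in US 48 h and 130.4 RPM in control 48 h. The fall was 105.4-fold in the US step (95% interval 75.6 to 151.5) and 108.2-fold in the control step (81.7 to 146.4). With 1 other gene it shared the smallest adjusted p of the limma fit, 0.00265 (log2 difference -6.74, standard error 0.45), and the 5 genes of smallest p were all lower at 1 w.

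PGSC0003DMG400020703 (chromosome 7, 7686336 to 7686831, plus strand) had 1 read in each library of 1 w, against 988 reads in US 48 h and 817 reads in control 48 h. The ratio was 969 in the US step (95% interval 173.5 to 38310) and 873 in the control step (156.3 to 34530). The gene next to it, which ends at position 7690840, had no reads in either library of 1 w, against 474 reads in US 48 h and 488 reads in control 48 h.

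Falling genes were often neighbours. Of 252 falling genes placed on chromosomes 1 to 12, 48 (19.0%) stood in 21 runs of adjacent expressed genes that all fell, whereas 2.34% of the 20957 expressed and placed genes stood next to a falling gene. Without features that overlap another, 46 of 242 had such a neighbour. The longest run held 4 genes within 21.5 kb of chromosome 4. Of 169 rising genes, 18 (10.7%) stood in 8 runs, whereas 1.59% of expressed genes stood next to a rising gene. Chromosome 3, where the Kunitz genes lie, had 37 falling genes, 1.65% of its expressed genes, and chromosome 10 had 1.63%. The lowest share was 0.924% on chromosome 6. Neighbouring copies of one family share sequence, so the genes of a run are not independent of each other. Some falling runs were pairs whose identifiers share a locus number, such as PGSC0003DMG402004840 and PGSC0003DMG401004840. Whether such pairs are separate genes was not tested.

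The libraries of other times, which the rule did not use, showed what these genes did before and after. Of the 266 falls, 80 (30.1%) had been at least 4-fold higher at 24 h than at 0 h in both treatments, beside 4.82% of all expressed genes, and 8 had been lower, beside 3.97%. Of the same 266, 102 (38.3%) were also at least 4-fold lower at 4 w than at 24 h in both treatments, beside 4.41%, and 201 were lower at 4 w in both by any amount. Against 0 h in place of 24 h, 48 were at least 4-fold lower at 4 w in both treatments and 12 at least 4-fold higher. By any amount, 118 were lower and 82 higher in both. The share over all expressed genes was not counted for 4 w against 0 h, nor for the counts by any amount. Nothing is read from those counts.

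Of the 175 rises, 6 were at least 4-fold higher at 4 w than at 24 h in both treatments, or 3.43% beside 0.8% of all expressed genes. At 1 w, 141 of the 175 had their highest level of all 5 times in both treatments, as 11.7% of expressed genes did, but the rule chose them for a high level at 1 w and nothing is read from that count. The median level of the 175 genes was 4.69 RPM in US 1 w and 3.71 RPM in control 1 w, against 0.557 RPM in US 48 h and 0.315 RPM in control 48 h, and it was 0.482 RPM in US 4 w and 1.0 RPM in control 4 w. That of the 266 was 0.913 RPM in US 1 w and 1.25 RPM in control 1 w, against 9.10 RPM in US 48 h and 17.2 RPM in control 48 h.

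The time at which a falling gene was highest draws on the 48 h values that the rule used. No share over all expressed genes stands beside the counts of such times, so nothing is read from them. In the US series 130 of the 266 genes were highest at 24 h and 91 at 48 h. In the control series 44 were highest at 24 h and 165 at 48 h. The US 24 h library had a correlation of 0.953 with control 24 h and 0.935 with control 48 h, so both US libraries were nearer to control 24 h, and the steps of the treatments from 24 h to 48 h had a correlation of -0.027. The labels were taken as given, and whether the US libraries of 24 h and 48 h were exchanged was not tested.

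**Figure D5:**
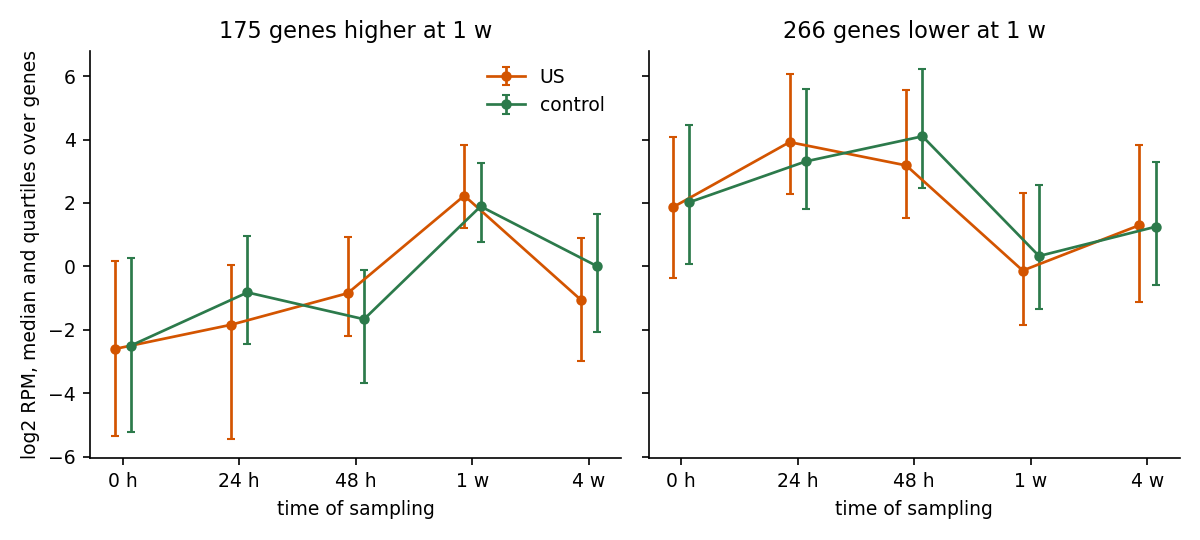
Median log2 RPM over the 5 times in the US series (orange) and the control series (green), with bars from the lower to the upper quartile over genes, for the 175 genes higher and the 266 genes lower at 1 w. The medians of the rising genes reach 4.69 RPM in US 1 w and 3.71 RPM in control 1 w. The median of the falling genes is highest at 24 h in US and at 48 h in control, and the rule used the values of 48 h and 1 w.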

How the data were processed

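After selection of mRNA on oligo(dT) beads, the authors aligned paired-end reads to SolTub 3.0 with HISAT2 2.1.0, per the submitters' processing notes, and quantified exons in SeqMonk at a minimum mapping quality of 60. The deposited values are log2 RPM for 40430 features. A feature without reads carries the value of 0.9 reads, and 99.9782% of the other values came out as whole reads within 0.1, from which totals and reads were recovered. Feature reads sum to 1.73 to 1.75 times a library's total in the 4 libraries. Whether counting used strand is not given in the sources used here. Of the features, 3124 overlap another.

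The rule of size, limma 3.58.1 (R 4.3.3, eBayes with trend, Benjamini-Hochberg) and the exact intervals are described with the results. Scripts were checked on simulated data. Named genes were the 5 largest and 12 largest named changes each way, up to 4 members per list, the 5 most abundant, 3 opposite genes, the 5 of smallest p, and the 10 RT-qPCR genes, of which 6 were tested, 0 called and 1 past the rule of size; unnamed ones are mostly given as ranges, and a few other list members were added after their values were seen. The members and lists were chosen with earlier results of these data known. Alternatives are given in the closing section. Replicates were pooled before deposit, so p-values measure the disagreement of the treatments. Gene names come from the study's lists; 0 identifiers matched the RefSeq table.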

Additional observations from a re-analysis of the deposited data

Results flagged for a closer look

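The steps of the treatments went in opposite directions, each by at least 4-fold, for 16 genes: 10 were higher at 1 w in US and lower at 1 w in control, and 6 the other way. The difference between the steps was not tested, since each rests on 1 library a side. The 3 genes with the largest smaller step, none with a name in the sources used here, had few reads.

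PGSC0003DMG400007671 (chromosome 6) had 60 reads in US 1 w and 3 in control 1 w, against none in US 48 h and 126 in control 48 h, a US step minus control step of 11.58 on the log2 scale. PGSC0003DMG400005621 (chromosome 3) had 42 reads in US 1 w and 8 in control 1 w, against 4 in US 48 h and 62 in control 48 h, a difference of 6.47. PGSC0003DMG400027973 (chromosome 4) had 14 reads in US 1 w and 62 in control 1 w, against 87 in US 48 h and 2 in control 48 h, a difference of -7.47.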

How the results depend on the processing

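Counts are given as higher and lower genes, beside 175 and 266 by the rule of size. A log2 limit of 1 gave 804 and 988, a minimum of 4 RPM 78 and 179, and no minimum 489 and 484. The share of lower genes, 60.3%, became 69.7% with 4 RPM and 49.7% with no minimum. Quantile normalization, median-ratio scaling, leaving out overlapping features and keeping only PGSC identifiers (the last chosen after seeing the data) gave 170 to 175 and 255 to 269. Leaving out 1 treatment gave 512 to 890 and 609 to 1101. For limma, beside 29 and 141, the 4 libraries of the step alone gave 192 and 393, no treatment block 45 and 168, no filter 22 and 64, eBayes without trend 4 and 30, quantile normalization 44 and 175, and leaving out the 4 w pair 17 and 118. Leaving out 1 of the 4 libraries gave 0 to 150 and 0 to 149. A minimum mean log2 RPM of 2, median-ratio scaling, log2(RPM + 0.5) and leaving out the 0 h or 24 h pair stayed within 1.5 times. Over all list members, 0 higher and 5 lower calls became 8 and 29 with the 4 libraries alone. In libraries the rule did not use, 102 lower genes became 48 with 0 h in place of 24 h, for which no share over all genes was counted. No named gene called by limma reversed. The step was paired by treatment in the limma fit, and the labels carry no replicate numbers that could pair the libraries otherwise.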
